A study of Mus musculus with 4 samples.

Results

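The comparison described here sets the H3K23 propionylation of hearts under pressure overload on a diet without branched-chain amino acids (BCAA) against that of hearts under the same load on a control diet. All 29210 regions of the table and all 17640 genes listed in it were compared, with no choice by measured values. Hearts came from male C57Bl/6J mice aged 12 weeks, and each library was a pool of 3 hearts. Diets started 4 days before surgery and went on until the hearts were taken 1 week after it. The control TAC library came from mice on the BCAA-control diet, which holds all essential amino acids, and with transverse aortic constriction (TAC), in which a suture narrows the aorta and loads the left ventricle. The BCAA-free TAC library came from mice with the same surgery and a diet from which leucine, isoleucine and valine were left out. A control sham and a BCAA-free sham library, from mice with mock surgery on the same diets, are given beside them.

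Propionylation of histone H3 at lysine 23 (H3K23) is an acyl mark placed on lysine by acyltransferases that use propionyl-CoA, and such marks are found at active promoters. Heart muscle breaks down isoleucine and valine to propionyl-CoA, which carboxylation and a mutase then pass on to succinyl-CoA in the tricarboxylic acid cycle. The comparison addresses whether taking away the dietary source of these amino acids goes with another distribution of the mark over the genes of the loaded heart.

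With 1 library a side there was no replicate and no test, and the words higher and lower compare these libraries, not the diets. Values are average signals, a density of sequenced fragments per region that can be compared between regions of different length. The ratio is log2((A + 1)/(B + 1)) of BCAA-free TAC over control TAC, and a region was counted when it passed 1.5-fold (0.58 on the log2 scale). Intervals are 95% intervals from the estimated tags of a region and cover counting error only, and sequenced tags may include PCR copies that are not independent molecules. There was no input library, and how the libraries were scaled is not stated in the labels, so a shift of the mark in all regions could not be seen. In a whole heart, fewer cells of a type and less of the mark per cell cannot be told apart.

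The 4 libraries had 11291348 to 11886699 estimated tags in the regions, with a median of 198 to 205 a region. The tissue label was checked against defining genes. Regions were listed for 31 of 32 sarcomere genes, with a median signal of 9.94 in control sham. Among liver and neuron genes, 14 of 28 had a region, with a median signal of 5.41. The load markers Nppa, Nppb and Acta1 had no listed region.

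Most of the listed regions carried nearly the same signal in both TAC libraries. The median ratio was −0.02 over regions and −0.04 over genes, and 95% of regions lay between −0.46 and 0.45. Past 1.5-fold, 277 regions (0.948%) were higher and 281 (0.962%) lower in the BCAA-free TAC library, and 10 in each direction passed 2-fold. Of genes, represented by the region nearest to their start, 71 (0.402%) were higher and 86 (0.488%) lower. After both libraries were scaled to the same median, 96 genes were higher and 70 lower, so the prevailing direction of genes depended on the scaling.

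The regions past 1.5-fold were short and thinly covered. The median length was 2200 bases for the higher and 2600 for the lower regions, against 6400 for all. The higher regions had a median of 67.3 estimated tags in BCAA-free TAC and 38.0 in control TAC, and the lower regions had 46.9 and 83.9. The 6201 shortest regions, of 400 to 3400 bases, held 223 of the higher and 197 of the lower regions. Of 5293 regions with at least 500 estimated tags in both TAC libraries, 0 passed 1.5-fold in either direction. With at least 100 tags in both, a limit chosen after the data were seen, 11 higher and 37 lower regions were left.

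**Figure D1:**
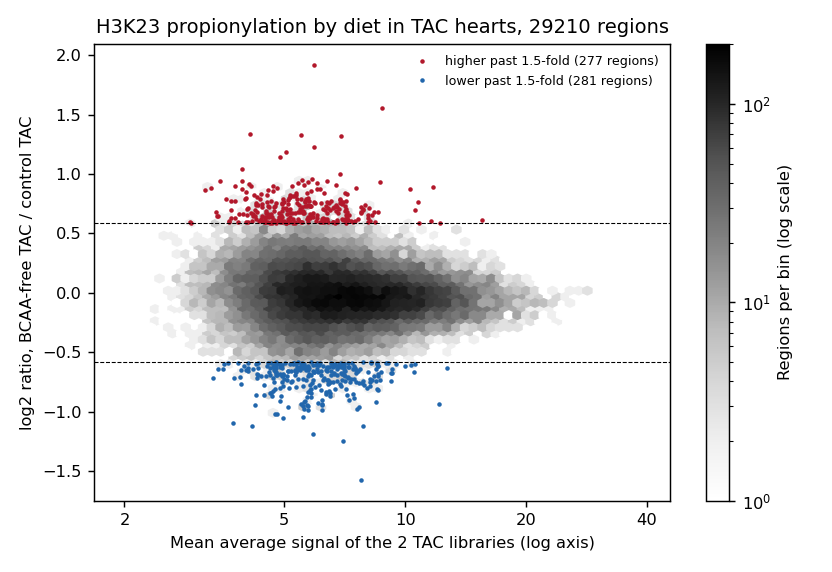
Log2 ratio of BCAA-free TAC over control TAC (vertical axis) against the mean average signal of both TAC libraries (horizontal log axis) for 29210 regions, with grey shading for regions per bin, coloured points for regions past 1.5-fold and dashed lines at that fold. The 277 higher and 281 lower regions lie at both sides of a narrow band and mostly at low to middle signal.

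Promoters with a CpG island (a stretch rich in CG dinucleotides) held few of these regions. Of 9037 such regions, 15 (0.166%) were higher and 22 (0.243%) lower, against 0.948% and 0.962% of all regions. They had a median length of 8000 bases against 6400 for all, and the part of depth was not tested. Promoter regions without a CpG island numbered 3483, with 19 (0.546%) higher and 31 (0.890%) lower, the latter near the share of all regions. Of 10056 regions that held a gene without its promoter, 121 (1.20%) were higher and 124 (1.23%) lower. Among 6634 regions without a gene, these numbers were 122 (1.84%) and 104 (1.57%). Peak calls of the authors followed the ratio: 2475 regions had a peak in BCAA-free TAC only, with a median ratio of 0.26, and 2613 in control TAC only, with −0.27. Both libraries had a peak in 20396 regions.

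Genes of DNA replication and mitosis had the lowest median of 29 gene lists. The cell cycle list had a median ratio of −0.24 (quartiles −0.38 to −0.18) over 37 measured genes of 38, against −0.04 (−0.14 to 0.08) over all genes. Of these 37, 33 lay below the median of all genes, 4 were lower past 1.5-fold and 0 were higher. The counting interval lay below 0 in 21 members and above 0 in 1, whereas over all genes it lay below 0 in 17.2% and above 0 in 6.599%. The list has no test here. The macrophage list was the lowest under 4 of the 12 alternatives run and the neutrophil list under 1.

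The 4 members past 1.5-fold act in the S and M phases of the cell cycle. Tpx2, which builds the mitotic spindle, had an average signal of 4.13 in control sham, 7.67 in control TAC, 5.41 in BCAA-free sham and 3.72 in BCAA-free TAC. The control TAC library was the highest of the 4 and BCAA-free TAC the lowest, a ratio of −0.88 (interval −1.22 to −0.54) at chr2:152846200-152850399 (mm10). Tpx2 has a further region of higher signal, where the ratio was −0.09. Ccna2, the gene of cyclin A2, had 5.46, 10.1, 6.65 and 5.54 in the same order of libraries. Its ratio was −0.76 (−1.14 to −0.37), and the region also lists Exosc9 and Bbs7.

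Rrm2, a subunit of the ribonucleotide reductase that makes deoxynucleotides, had 6.38 in control sham, 9.51 in control TAC, 5.89 in BCAA-free sham and 5.37 in BCAA-free TAC. Its ratio of −0.72 (−0.97 to −0.48) rested on 280 estimated tags in control TAC and 158 in BCAA-free TAC, more than for the other members past 1.5-fold. Its peak height had a ratio of −0.24. Ccnb2, the gene of cyclin B2, had 5.68, 8.98, 4.66 and 5.48, a ratio of −0.62 (−1.05 to −0.20). In each of these genes the control TAC library stood above all others, which lay closer to each other. They were singled out because control TAC exceeded BCAA-free TAC, so this order follows in part from the rule.

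Next in order were Ccnb1 (cyclin B1) and the mitotic kinase gene Plk1 at −0.58 each, the spindle checkpoint kinase gene Bub1 at −0.52 and the E2F factor genes E2f8 at −0.45 and E2f1 at −0.43. The proliferation marker gene Mki67 had 4.43 in control sham, 7.12 in control TAC, 4.44 in BCAA-free sham and 5.63 in BCAA-free TAC, and Top2a, a topoisomerase that untangles replicated DNA, had 5.19, 7.54, 4.37 and 5.92. Their ratios were −0.29 and −0.30. Here BCAA-free TAC lay between the sham libraries and control TAC. At the other end, the D-type cyclin gene Ccnd2 was the highest member at 0.14, and Aurka was at 0.03, Cdk2 at −0.02 and Cdt1 at −0.02. The replication helicase genes Mcm2 and Mcm7 had −0.08 and −0.05, and their signal was 14.2 to 14.8 in control TAC.

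The authors called a peak in control TAC but not in BCAA-free TAC for 7 cell cycle genes (Tpx2, Ccna2, Ccnb2, Ccnb1, Plk1, Bub1 and E2f8) and the reverse for 0. Over all 17640 genes, these numbers were 764 and 819. Control TAC was the highest of the 4 libraries in 29 of the 37 members and in 33.5% of all genes. The summed signal of the list was 288 in control sham, 359 in control TAC, 281 in BCAA-free sham and 293 in BCAA-free TAC. Control TAC thus stood above the other 3 libraries, which differed little.

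The diet ratio of the list in sham hearts, from libraries that do not enter the TAC comparison, had a median of −0.08, and 23 members lay below the median of all genes there. Tpx2 (0.32), Ccna2 (0.24), Ccnb1 (0.25) and Bub1 (0.29) were above 0 in sham. The ratio of TAC over sham, which shares its libraries with the comparison of diets, had a list median of 0.31 with control diet and 0.05 with BCAA-free diet.

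Promoter sequences of 4 of the lowest cell cycle genes that lie inside their region are printed below, since many mitotic genes carry a CCAAT box and a cell cycle genes homology region (CHR) near their start. Each runs from 250 bases before to 50 bases after the start, 5′ to 3′ on the gene's strand, from RefSeq on GRCm38.p6. Capitals mark CCAAT and TTTGAA on either strand. The windows are chr12:24708004-24708303 (Rrm2, plus strand), chr9:70421505-70421804 (Ccnb2, minus), chr13:100786437-100786736 (Ccnb1, minus) and chr7:122159185-122159484 (Plk1, plus).
Rrm2: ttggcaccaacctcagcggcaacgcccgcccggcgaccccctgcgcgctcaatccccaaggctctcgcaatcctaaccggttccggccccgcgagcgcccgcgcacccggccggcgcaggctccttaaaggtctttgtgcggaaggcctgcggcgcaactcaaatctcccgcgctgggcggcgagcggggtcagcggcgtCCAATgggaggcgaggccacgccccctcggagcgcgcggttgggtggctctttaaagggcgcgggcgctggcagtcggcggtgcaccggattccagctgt
Ccnb2: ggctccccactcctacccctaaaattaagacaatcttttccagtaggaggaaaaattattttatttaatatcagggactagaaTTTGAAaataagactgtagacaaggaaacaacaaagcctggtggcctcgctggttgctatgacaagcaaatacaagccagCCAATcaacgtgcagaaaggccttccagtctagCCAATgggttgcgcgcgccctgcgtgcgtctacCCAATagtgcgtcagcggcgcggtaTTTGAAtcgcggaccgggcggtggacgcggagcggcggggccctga
Ccnb1: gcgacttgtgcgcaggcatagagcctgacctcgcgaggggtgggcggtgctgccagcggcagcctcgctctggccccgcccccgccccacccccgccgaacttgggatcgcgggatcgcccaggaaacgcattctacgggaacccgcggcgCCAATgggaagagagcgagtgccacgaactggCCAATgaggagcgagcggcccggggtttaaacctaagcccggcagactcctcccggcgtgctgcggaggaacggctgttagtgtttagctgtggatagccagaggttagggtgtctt
Plk1: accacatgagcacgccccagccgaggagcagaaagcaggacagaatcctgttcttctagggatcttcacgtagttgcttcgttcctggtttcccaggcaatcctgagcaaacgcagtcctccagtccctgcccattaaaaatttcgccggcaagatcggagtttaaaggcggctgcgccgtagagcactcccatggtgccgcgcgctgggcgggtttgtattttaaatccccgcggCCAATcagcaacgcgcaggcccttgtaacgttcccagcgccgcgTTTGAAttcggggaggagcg

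Ccnb2 held 3 CCAAT boxes and 2 TTTGAA, Ccnb1 2 and 0, and Plk1 and Rrm2 1 CCAAT box each, with 1 TTTGAA in Plk1 and 0 in Rrm2. Of 30 cell cycle genes with a promoter in the table, 24 (80%) held CCAAT and 13 (43.3%) TTTGAA, and the same 13 held both. Of all 27025 promoters, 37.9% held CCAAT, 18.1% TTTGAA and 7.12% both. CCAAT was also held by 72.7% of the 11 promoters of cardiac transcription factors. No instance of one motif overlapped the other in the printed windows. The motifs were chosen after the values were seen, and a match is not a binding site.

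From the 86 lower genes, 13 outside the list were picked for a known role in replication or mitosis. The pick was made after the values were seen and is not a complete count of lower genes with that role. No such count was made over all genes, so that their number shows no enrichment. Together with the 4 list members past 1.5-fold, these 17 genes had ratios of −0.99 to −0.59 in regions of 1800 to 6600 bases. Neil3, a DNA glycosylase of replicating cells, had 4.27 in control sham, 8.60 in control TAC, 4.45 in BCAA-free sham and 3.84 in BCAA-free TAC (−0.99, −1.43 to −0.55). Mybl2, a transcription factor of mitotic genes, had 5.33, 7.83, 5.52 and 3.59 (−0.94, −1.41 to −0.47). Cenpf, a kinetochore protein gene, had 5.09, 8.47, 3.96 and 4.26 (−0.85). In each of the 3 genes control TAC was the highest library, and BCAA-free TAC was nearer to the sham libraries than to it. Since lower genes were counted by the same ratio, this order follows in part from the rule. In Neil3 and Mybl2, BCAA-free TAC was below both sham libraries. Nek2, Clspn, Kif22, Rad54l, Spc25, Ccnf and Mcm8 were further genes of this kind, between −0.81 and −0.59. In sham, 7 of the 17 had a diet ratio above 0 and 10 below.

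Macrophage genes formed the list with the next lowest median. Macrophages enter the loaded heart and are also resident there, and many of their genes are driven by the ETS factor PU.1. The list had a median of −0.23 (quartiles −0.34 to −0.17) over 29 measured genes of 32 in 27 regions. Of these, 25 lay below the median of all genes, 2 were lower past 1.5-fold and 0 higher, and 18 had a counting interval below 0 and 0 above. Timd4, Cybb and Ly6c2 had no region.

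Emr1, the gene of the F4/80 antigen and now named Adgre1, had an average signal of 5.69 in control sham, 10.5 in control TAC, 5.26 in BCAA-free sham and 5.595 in BCAA-free TAC. Its ratio was −0.80 (−1.11 to −0.49), since BCAA-free TAC was at the level of the sham libraries. In the region taken when at least 100 estimated tags were required, the ratio was −0.39. Trem2, a lipid receptor of macrophages, had 4.37, 9.23, 3.63 and 5.68, a ratio of −0.61 (−0.97 to −0.26), with BCAA-free TAC between sham and control TAC. Ly86, a partner of a Toll-like receptor homologue, had 7.74, 14.9, 6.995 and 10.2, a ratio of −0.50 (−0.69 to −0.30). Both BCAA-free TAC values lay above sham and below control TAC.

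The same order was seen in broader myeloid genes. Tyrobp, a signalling adaptor, had a ratio of −0.40, the C-type lectin gene Clec4a3 −0.37, the integrin gene Itgam −0.35 and the mannose receptor gene Mrc1 −0.35. Sfpi1, which encodes PU.1 itself, had 10.3 in control sham, 18.5 in control TAC, 10.5 in BCAA-free sham and 15.3 in BCAA-free TAC (−0.26, −0.34 to −0.17). The complement genes C1qa, C1qb and C1qc share 1 region with 15.9, 26.5, 15.7 and 23.2 (−0.18). Csf1r, the growth factor receptor of macrophages, was at −0.22 in a region that also lists Pdgfrb. The Fc receptor gene Fcgr1 was at −0.30, but at 0.38 in its region of highest signal.

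The members nearest to no difference were Cx3cr1, a chemokine receptor gene of resident cells, at −0.01, and Fcer1g at −0.02. Above 0 were Cd14 at 0.03 and Ms4a7, the highest, at 0.08. The summed signal of the list was 171 in control sham, 279 in control TAC, 170 in BCAA-free sham and 229 in BCAA-free TAC, and 27 of 29 members had their highest value in control TAC. Control TAC was thus the highest library for most members, with BCAA-free TAC between it and the sham libraries. The diet ratio in sham had a median of −0.02. Ratios of TAC over sham, which share libraries with the comparison of diets, had medians of 0.64 with control diet and 0.45 with BCAA-free diet.

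The promoter of Trem2 (chr17:48346151-48346450, plus strand, RefSeq GRCm38.p6) is shown because it lies in the region past 1.5-fold and holds a PU.1 motif. Capitals mark GAGGAA on either strand, here read as TTCCTC.
Trem2: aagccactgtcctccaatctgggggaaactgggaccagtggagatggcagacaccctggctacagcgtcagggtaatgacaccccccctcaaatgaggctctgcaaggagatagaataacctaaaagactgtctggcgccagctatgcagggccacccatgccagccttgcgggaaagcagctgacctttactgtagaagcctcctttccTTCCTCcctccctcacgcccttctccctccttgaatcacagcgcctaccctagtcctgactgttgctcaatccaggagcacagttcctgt

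Of 22 macrophage genes with a promoter in the table, 13 (59.1%) held GAGGAA, against 28.3% of all promoters. The share was as high in fibroblast markers (60%), neutrophil (57.1%), lymphocyte (54.5%) and endothelial markers (53.3%), on 7 to 20 promoters each, and is not particular to the macrophage list.

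**Figure D2:**
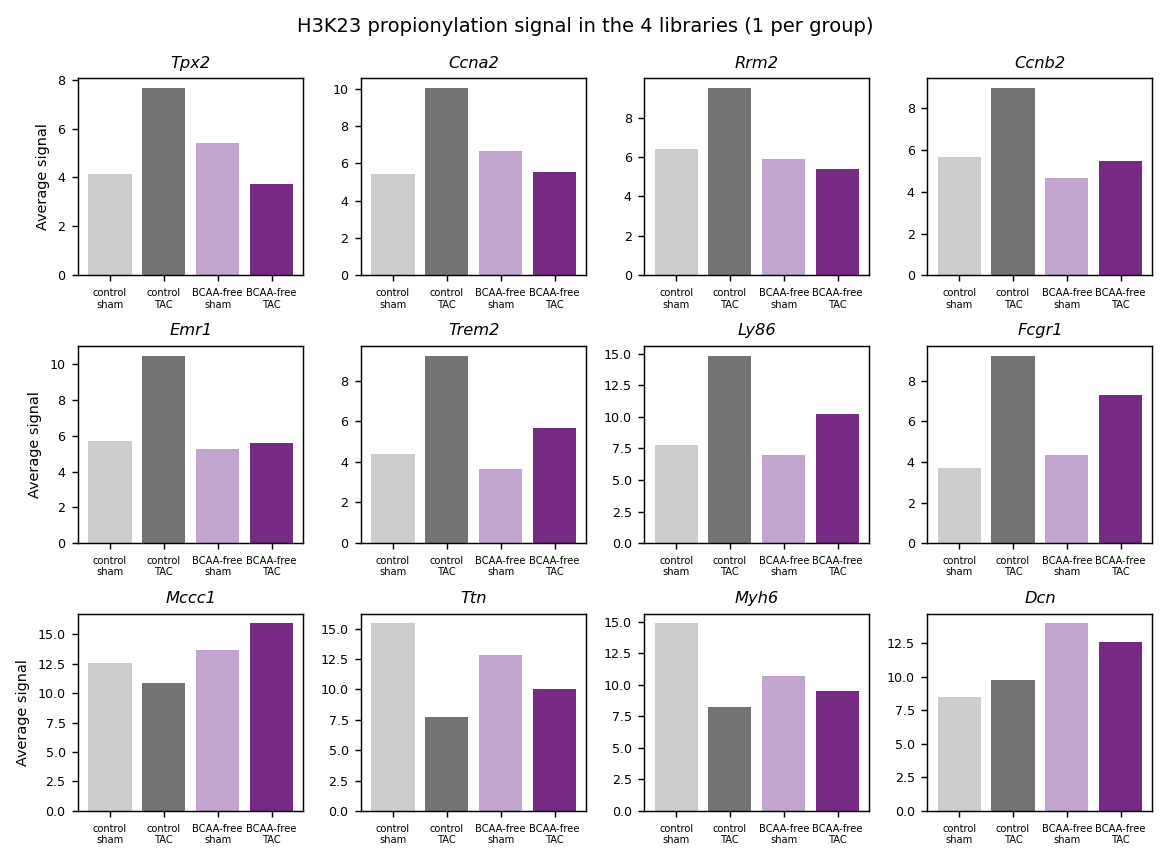
Average signal (vertical axis, from 0) in the 4 libraries, 1 bar each, for 12 genes of the cell cycle, macrophage, BCAA catabolism, sarcomere and fibroblast lists. Control TAC is the highest bar in the cell cycle and macrophage genes, whereas in Ttn and Myh6 the control sham bar is the highest and BCAA-free TAC lies above control TAC.

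The medians of the neutrophil, lymphocyte and interferon response lists also lay below that of all genes. Neutrophil genes had a median of −0.18 over 9 measured of 17, with 0 past 1.5-fold. Of these members, 5 lay below and 4 above the median of all genes. The list median ranged from −0.30 for genes with the region at the start to −0.01 with the region of highest signal. Their lowest member was the NADPH oxidase subunit gene Ncf4, with 7.50 in control sham, 14.2 in control TAC, 6.25 in BCAA-free sham and 9.69 in BCAA-free TAC (−0.51, −0.67 to −0.34). Lymphocyte genes had −0.10 over 20 of 31, with 11 below and 9 above the median of all genes. The T cell receptor genes Cd3d and Cd3g were at −0.57 in 1 shared region. The median of lymphocyte genes alone in their region was −0.20. The lymphocyte member with the highest ratio was Tcf7 at 0.12. Interferon response genes had −0.13 over 30 of 31, with 24 below the median of all genes. Oas2, an antiviral RNA sensor, was lowest at −0.51 and had −0.52 in sham as well. The RNA helicase gene Ddx58 was highest at 0.31.

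From the 86 lower genes, 5 of myeloid or leukocyte type were again picked after the values were seen: Emr1, Trem2, Pira6, Spn and Ffar2. The pick is not a complete count of such genes, and no such count was made over all genes. Spn, which encodes the leukocyte sialophorin CD43, had 4.09 in control sham, 10.4 in control TAC, 3.85 in BCAA-free sham and 6.57 in BCAA-free TAC (−0.60). Ffar2, a receptor for short-chain fatty acids, had 2.21, 8.45, 2.06 and 5.07 (−0.64). Its region lies downstream of the gene without the promoter, with the middle 11276 bases from the start. Spn and Ffar2 were both low in the sham libraries and highest in control TAC, the latter in part through the rule that counted them as lower. Immune genes also stood among the 71 higher genes. Examples were the macrophage elastase gene Mmp12 at 0.76, the chemokine gene Ccl28 at 0.74 and the interleukin receptor gene Il2ra at 0.70. Their regions hold no promoter. Mmp12 rested on 23.9 estimated tags in control TAC and 44.4 in BCAA-free TAC, and Ccl28 on 20.4 and 36.4. The pick among the lower genes thus shows no direction of immune genes as a whole. The summed signals of the macrophage and the cell cycle lists were both highest in control TAC, and the part of the macrophage list in the values of the cell cycle list was not tested.

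**Figure D3:**
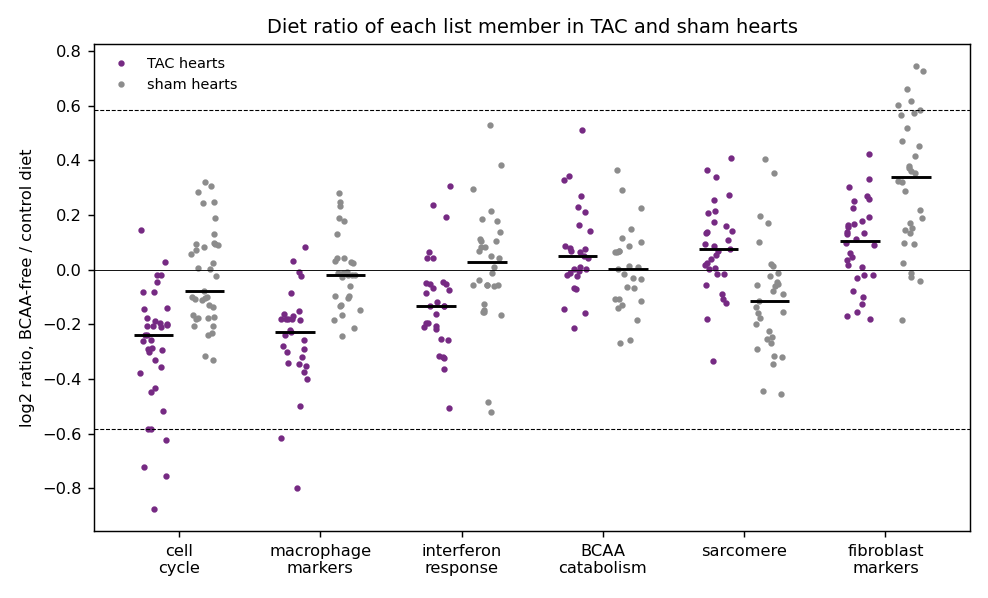
Log2 ratio of BCAA-free over control diet (vertical axis) for each measured member of 6 gene lists in TAC (purple) and sham hearts (grey), with bars at the list medians and dashed lines at 1.5-fold. Cell cycle and macrophage members lie mostly below 0 in TAC (medians −0.24 and −0.23) and around 0 in sham (−0.08 and −0.02), and fibroblast markers lie higher in sham (0.34) than in TAC (0.11).

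Genes of BCAA breakdown lay slightly above the median of all genes, and none of them passed 1.5-fold. The list had a median of 0.05 (−0.01 to 0.15) over all 27 genes in 26 regions, with 22 above the median of all genes. The counting interval was above 0 in 5 members and below 0 in 1. Mccc1, a subunit of the carboxylase of leucine breakdown, had 12.5 in control sham, 10.9 in control TAC, 13.7 in BCAA-free sham and 15.9 in BCAA-free TAC. BCAA-free TAC was the highest library, with a ratio of 0.51 (0.24 to 0.79), but the peak heights of the TAC libraries had a ratio of 0.02.

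Further genes of the leucine and valine pathways differed in which library was highest. Ivd, isovaleryl-CoA dehydrogenase, had 7.34, 6.86, 9.22 and 8.97 in control sham, control TAC, BCAA-free sham and BCAA-free TAC (0.34, 0.05 to 0.64). Aldh6a1, which makes propionyl-CoA from the valine pathway, had 14.2, 10.96, 15.9 and 14.0 (0.33, 0.12 to 0.53). Both had a lower signal in control TAC than in the other libraries. Hibadh, an enzyme of valine breakdown, had 0.27 and the mitochondrial transaminase gene Bcat2 0.23 (0.08 to 0.38).

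The branched-chain ketoacid dehydrogenase subunit genes Bckdha and Bckdhb had 0.14 and 0.08, its kinase gene Bckdk 0.16 and its phosphatase gene Ppm1k 0.09, with intervals that include 0. Klf15, a transcription factor of BCAA breakdown, had 24.0, 18.4, 22.1 and 19.3 (0.07). The cytosolic transaminase gene Bcat1 was at −0.16. In sham, the diet ratio of the list had a median of 0.00.

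Propionyl-CoA metabolism showed no shift of the list, with a median of 0.00 over 22 of 23 genes and 0 past 1.5-fold. Pcca, the alpha subunit of propionyl-CoA carboxylase, had 6.63 in control sham, 6.30 in control TAC, 6.64 in BCAA-free sham and 5.47 in BCAA-free TAC (−0.17, −0.46 to 0.11) and was the lowest member. Pccb, the beta subunit, had 12.4, 11.9, 13.3 and 11.9 (0.00, −0.21 to 0.21). Mut, the methylmalonyl-CoA mutase gene, had −0.07. The interval of each of the 3 genes includes 0. The list of histone acylation enzymes and their erasers had −0.02 over 35 genes. The acetyltransferase gene Kat2a was lowest with 8.06, 11.1, 8.44 and 8.29 (−0.39, −0.57 to −0.20). Its region lies downstream, with the middle 9168 bases from the start, and also lists Dhx58, Hspb9 and Rab5c. Kat8 was highest with 11.3, 9.51, 12.3 and 13.6 (0.48, 0.22 to 0.73). The region of Kat8 also lists Bckdk, whose value above comes from another region nearer to its start. In the regions of highest signal the ratios were −0.17 for Kat2a and 0.19 for Kat8.

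Lists of nutrient sensing differed little from all genes. Amino acid starvation genes, targets of the ATF4 pathway, had a median of −0.05 over 29 genes. Slc7a11, the cystine transporter gene, was highest at 0.58, just under the threshold, on 32.9 estimated tags in control TAC and 52.5 in BCAA-free TAC. The kinase gene Eif2ak3 was lowest at −0.25. Leucine sensing and mTORC1 genes had −0.06 over 36 genes, from −0.36 for the leucyl-tRNA synthetase gene Lars to 0.34 for Rptor, a subunit of mTORC1, which had −0.15 in its region of highest signal. Glucose metabolism had −0.06, from Pfkl at −0.27 to the pyruvate carrier gene Mpc1 at 0.24. In these 3 lists 0 members passed 1.5-fold.

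Contractile and oxidative genes of heart muscle lay a little above all genes. Sarcomere genes had a median of 0.08 (−0.01 to 0.17) over 31 genes, with 25 above the median of all genes and 0 past 1.5-fold. Ttn, the gene of titin, had 15.4 in control sham, 7.70 in control TAC, 12.8 in BCAA-free sham and 10.01 in BCAA-free TAC (0.34, 0.11 to 0.57). Myh6, the alpha myosin heavy chain gene, had 14.9, 8.28, 10.7 and 9.48 (0.18, 0.05 to 0.30). The region of Myh6 also lists Myh7, Mir208a, Mir208b and D830015G02Rik, so its signal is not that of Myh6 alone. In Ttn and Myh6, control TAC was the lowest library and the sham libraries the highest. The actin-binding protein gene Xirp2 was the highest member at 0.41 and the Z-disc gene Nebl the lowest at −0.34 (−0.71 to 0.04). Actc1, cardiac actin, had 13.5, 6.81, 10.6 and 6.95 (0.03), so that both TAC libraries were alike.

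The sarcomere list went the other way in sham, with a median diet ratio of −0.11 and 26 members below the median of all genes. Its summed signal was 323 in control sham, 238 in control TAC, 293 in BCAA-free sham and 252 in BCAA-free TAC, so the diets were nearer to each other in TAC hearts. In TAC, the median of calcium and ion channel genes was 0.01. Ryr2, the calcium release channel, had 9.38, 5.48, 10.3 and 7.28 (0.35, 0.07 to 0.64), while the calcium pump gene Atp2a2 was at 0.01. The intercalated disc list had 0.00 and the cardiac transcription factors 0.00, with Mef2c at 0.33 and Hopx at −0.18. Mef2c had −0.11 in its region of highest signal, and by peak height the median of the cardiac transcription factors was 0.22.

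For oxidative phosphorylation the median was 0.10 (−0.01 to 0.17) over 41 of 42 genes, with 33 above the median of all genes and 0 past 1.5-fold. The highest member was Cox7b, a subunit of cytochrome oxidase, with 10.8, 7.83, 10.9 and 10.2 (0.34, −0.01 to 0.70), but −0.03 in the region taken when at least 100 estimated tags were required. Fatty acid oxidation genes had 0.06 over 32 genes, from the uncoupling protein gene Ucp3 at −0.21 to the nuclear receptor gene Esrrg at 0.36. Cd36, the fatty acid transporter gene, had 16.5, 10.5, 16.4 and 10.5 (0.00). The list had 0.00 when each gene took its region of highest signal. Tricarboxylic acid cycle genes had 0.01, with Sdhc at −0.22 and Idh3b at 0.31.

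Fibroblast markers had the highest median of the 29 lists, 0.11 (−0.02 to 0.18) over 32 genes, with 26 above the median of all genes and 0 past 1.5-fold. The lead over oxidative phosphorylation was under 0.01, and by peak height the fibroblast median of 0.21 lay below that of the cardiac transcription factors. Under 3 of the 12 alternatives another list was higher. The summed signal was 254 in control sham, 285 in control TAC, 324 in BCAA-free sham and 303 in BCAA-free TAC. In sham the median diet ratio was 0.34. Dcn, the proteoglycan decorin, had 8.45, 9.76, 14.0 and 12.6 (0.33, 0.23 to 0.44), and both libraries of the BCAA-free diet were above both of the control diet. Extracellular matrix genes, 8 of which are also fibroblast markers, had 0.07 over 44 of 45 genes. Their highest members were the metalloproteinase inhibitor gene Timp1 at 0.46 and the metalloproteinase gene Mmp2 at 0.37, but Timp1 had 0.00 in its region of highest signal. The basement membrane collagen genes Col4a1 and Col4a2 were lowest at −0.26 in 1 shared region. The activated fibroblast gene Postn was at −0.05 and Col1a1 at 0.10. The matrix list had −0.02 when each gene took its region of highest signal.

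Endothelial markers had −0.03 in TAC, the level of all genes, from Plvap at −0.42 to the growth factor receptor gene Flt1 at 0.19, and Pecam1 was at −0.10. Smooth muscle and pericyte markers had a median of −0.01, with Higd1b lowest at −0.44 and Kcnj8 highest at 0.34. Adipocyte markers had −0.07, mesothelial markers 0.01, TGF-beta signalling 0.03 and immediate early genes −0.06. Hypertrophy and fetal genes had −0.03 over 20 of 24, and ribosomal protein genes −0.02 over 42 of 44. Of liver and neuron genes, which mark tissues that were not sampled, Rbfox3 was higher past 1.5-fold at 0.72, with a value of −0.18 in its region of highest signal.

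**Figure D4:**
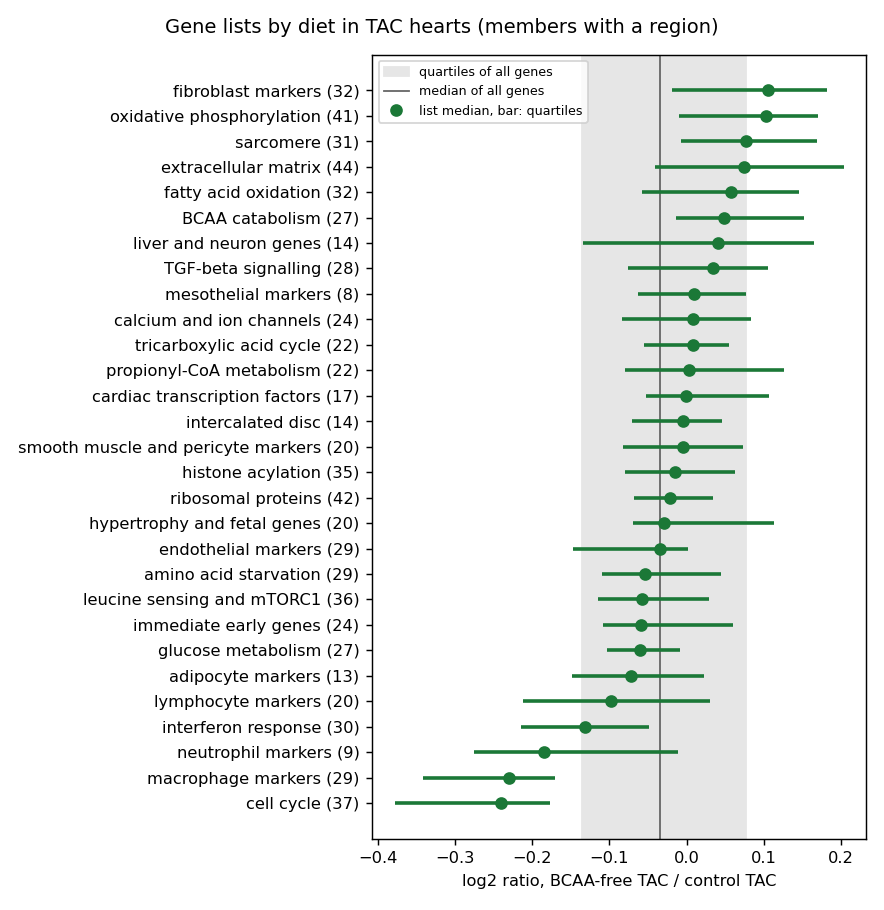
Median log2 ratio of BCAA-free TAC over control TAC (horizontal axis) for 29 gene lists, with bars for the quartiles and the number of members with a region in brackets. The cell cycle and macrophage lists lie left of the grey band that marks the quartiles of all genes, and their bars do not reach the median of all genes.

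Single genes were ranked among 4198 with a region at the start and a signal above the median of all genes. Of these, 2 were higher and 4 lower past 1.5-fold. Ftsj1, a methyltransferase of transfer RNA, was the highest, with 8.74 in control sham, 6.97 in control TAC, 12.5 in BCAA-free sham and 13.6 in BCAA-free TAC (0.87, 0.48 to 1.26; chrX:8251400-8253399). Magohb, of the exon junction complex, had 7.71, 8.45, 11.9 and 13.2 (0.59, 0.28 to 0.89). In both genes the 2 BCAA-free libraries lay above the 2 control diet libraries.

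The next highest were Evc and Evc2, ciliary proteins of Hedgehog signalling that share a region, at 0.58 and the zinc finger gene Zbtb14 at 0.57. The Mediator subunit gene Med6 and the mitochondrial alanyl-tRNA synthetase gene Aars2 had 0.55 each, and the Y-linked histone demethylase gene Kdm5d and Mccc1 0.51 each. Acat2, the cytosolic acetoacetyl-CoA thiolase, and the RNA editing gene Adar had 0.50 each (Adar −0.14 in its region of highest signal), the matrix Gla protein gene Mgp 0.49 and Spats2l 0.48. Mgp, an inhibitor of calcification, had 9.35, 9.32, 14.3 and 13.5, again with both BCAA-free libraries high.

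The lowest was Lipo1, a lipase family gene, with 11.9 in control sham, 16.3 in control TAC, 12.1 in BCAA-free sham and 8.0 in BCAA-free TAC (−0.94, −1.77 to −0.11) on 14.2 to 28.9 estimated tags in TAC. Mcts1, a factor of translation reinitiation, had 10.3, 15.7, 11.03 and 9.74 (−0.64, −0.99 to −0.28). Control TAC was the highest library in both, which follows in part from the ranking by this ratio. The kinase gene Cdkl4 had −0.60 and Edaradd −0.59, with 0.02 for Edaradd in its region of highest signal. Then came Dscc1, of sister chromatid cohesion, at −0.58, the lymphoid factor gene Pou2f2 at −0.56, the centromere gene Cenpw at −0.54 and Prps2, of nucleotide synthesis, at −0.53. Arf3, Oas2, Ncf4 and Cyb5r1 had −0.51 each. Dscc1 had 9.10, 13.5, 7.90 and 8.70, and Pou2f2 6.08, 12.2, 5.04 and 7.99, with control TAC above the other libraries in both. Dscc1 had −0.14 in the region taken when at least 100 estimated tags were required.

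Of the 71 higher genes, 10 belong to 1 region of 3800 bases (chr12:109746800-109750599) with Mirg and 9 microRNA genes such as Mir410 and Mir369. Its signal was 3.21 in control sham, 3.38 in control TAC, 3.56 in BCAA-free sham and 5.62 in BCAA-free TAC (0.60, 0.22 to 0.98). The 71 higher genes thus lay in 55 regions and the 86 lower ones in 76.

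Of regions without a gene and with at least 100 estimated tags in the higher library, the highest was on chromosome 8 (36289600 to 36293199), with a signal of 11.4, 7.94, 13.1 and 15.5 in control sham, control TAC, BCAA-free sham and BCAA-free TAC (0.89, 0.61 to 1.17). The next were on chromosomes 14 and 5, at 0.89 and 0.81. The lowest, on chromosome 16 (50166200 to 50169199), had 3.94, 7.73, 4.23 and 3.44 (−0.98, −1.38 to −0.57), followed by regions on chromosomes 6 and 18 at −0.96 and −0.95.

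The diet ratio in sham hearts comes from the other two libraries. There, 791 regions (2.71%) were higher and 400 (1.37%) lower past 1.5-fold on the BCAA-free diet. Across 29210 regions the diet ratios in TAC and sham had Pearson r = 0.27 and Spearman rho = 0.26. The points share the regions and their depth and are not independent, so the values are a description. Over 5293 regions with at least 500 estimated tags r was 0.37, and over 7679 with under 100 it was 0.23.

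Of the 277 regions higher in TAC, 208 (75.1%) lay above the median of all regions in sham, and 52 passed 1.5-fold in the same direction there, 18.8% of the TAC and 6.57% of the sham regions. For the 281 lower regions these numbers were 181 (64.4%) on the same side and 25 past 1.5-fold (8.90% and 6.25%). In the opposite direction, 3 of the higher and 11 of the lower regions passed in sham. The higher regions had a median diet ratio of 0.29 in sham and the lower ones of −0.06. Whether this difference exceeds that between pools was not tested.

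**Figure D5:**
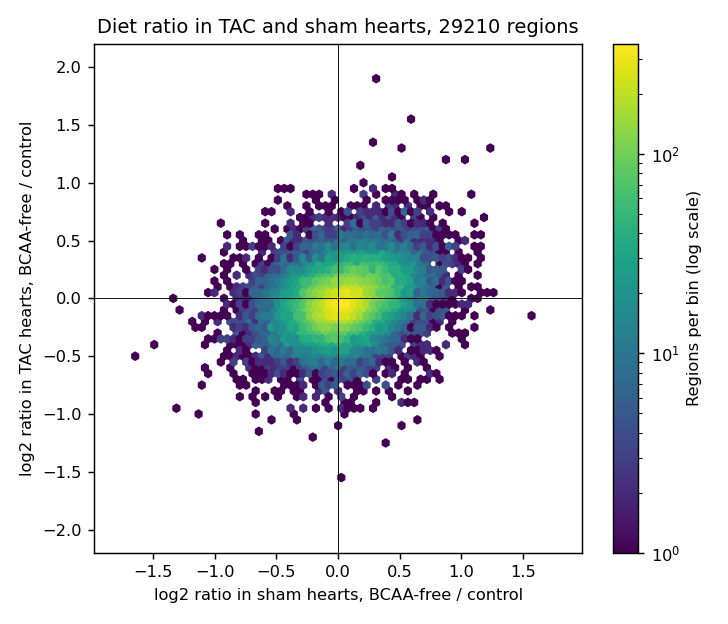
Log2 ratio of BCAA-free over control diet in TAC hearts (vertical axis) against that in sham hearts (horizontal axis) for 29210 regions, with colour for regions per bin on a log scale. The cloud is centred near 0 and tilts upwards (Pearson r = 0.27).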

How the data were processed

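H3K23 propionylation was measured by ChIP-seq in 4 libraries, 1 a group. The submitters' processing notes name BWA, MACS2 and the genome build mm10 but no versions or settings, and the scaling of the libraries is not stated there or in the labels. The authors deposited 1 table of 29210 merged regions with, per the file headers, the average signal, the peak height and a 0 or 1 peak call of each library. They also deposited log2 ratios and tag numbers. For the pair of TAC libraries, the deposited log2 ratio equalled the log2 quotient of average signals to within 4.44e-16. The deposited tag number of this pair equalled the larger signal times length divided by 224. Other deposited ratios and tag numbers were not checked. The relation of signal and tags was taken to hold for each library and gave the estimated tags here.

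Ratios and medians were computed in Python 3.11.15 with numpy 2.4.6, pandas 2.3.3, scipy 1.17.1 and statsmodels 0.14.6, with a pseudocount of 1 and no filter. On this log2(value + 1) scale, ratios at low signal come out too small. Each of 17640 genes took the region nearest to its start, and 8119 shared it with another gene. Counting error of the log2 ratio had a median of 0.125 over regions and 0.106 over genes. Gene names were matched in RefSeq GRCm38.p6, the assembly that mm10 is built on, for 17041 genes.

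Named genes were the 12 highest and 12 lowest among 4198 genes with the middle of the region at most 2500 bases from the start and a mean TAC signal above the median of all genes, without predicted genes and small RNAs, the highest and lowest member of each list, members past 1.5-fold and a fixed set of heart, cell type and BCAA genes. Some genes that meet this rule are not reported here. Other list members given as examples were picked with their values in view, as were the motifs and the replication and myeloid sets among the lower genes. The members and lists were chosen with earlier results of these data known. Other pseudocounts, peak height, other scalings, filters and ways to assign genes were tried as alternatives, and a minimum of 100 estimated tags was added later, with the data in view. The rule for regions past 1.5-fold was tried on simulated counts with planted 2-fold changes. Gene assignment, lists, intervals and motifs were not part of that simulation.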

Additional observations from a re-analysis of the deposited data

Results flagged for a closer look

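For 3 named genes, the diet ratio lay on opposite sides of 0 in TAC and in sham hearts with both counting intervals off 0. The difference was not tested, since each group is 1 library. Ttn had 0.34 in TAC and −0.25 in sham. Myh6, in a region that also lists Myh7, had 0.18 in TAC and −0.44 in sham. Flt1, an endothelial growth factor receptor gene, had 0.19 in TAC and −0.19 in sham. By peak height the TAC ratios were −0.04 for Myh6 and −0.11 for Flt1, so that their opposite sides were lost, and 0.69 for Ttn. In each gene control sham had the highest and control TAC the lowest signal, and the BCAA-free libraries lay between them.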

How the results depend on the processing

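The main counts were 277 higher and 281 lower regions and 71 higher and 86 lower genes. They followed the pseudocount: with 0.1 there were 508 and 513 regions and 134 and 157 genes, and with 5 there were 16 and 20 regions and 4 and 9 genes. Peak height gave 1579 and 1538 regions and 573 and 576 genes. A 2-fold rule left 10 and 10 regions and 2 and 3 genes. Signal above the median of all regions left 54 and 85 regions and 22 and 39 genes, and at least 100 estimated tags left 11 and 37 regions and 5 and 14 genes. Genes alone in their region numbered 37 and 51, and those with the middle of the region within 2500 bases of the start 27 and 44. Scaling to the same median, quantile normalisation, removal of the trend with signal and a required peak call kept the counts within 1.5 times the main ones. Among named genes, Edaradd (−0.59) had 0.017 with the region of highest signal and with at least 100 tags, and Rbfox3 (0.72) had −0.18, −0.18 and −0.17 with signal above the median, with the region of highest signal and with at least 100 tags. These settings represent the gene by another region. The region of highest signal put 13 further named genes of 97 outside their counting interval, among them Adar (−0.14), Mef2c (−0.11), Rptor (−0.15), Fcgr1 (0.38), Timp1 (0.00), Idh3b (0.04), Kat2a (−0.17) and Kat8 (0.19). Peak height did so for 38 of 97, and 86 kept their sign. Those that changed side include Flt1 (−0.11), Myh6 (−0.04), Ryr2 (−0.07) and Col4a1 (0.18).

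The median of the cell cycle list ranged from −0.32 to −0.19 and that of the macrophage list from −0.26 to −0.16 over the alternatives run. The macrophage median was below that of the cell cycle list with quantile normalisation, with the trend removed, with the region of highest signal and with signal above the median. The neutrophil median was below both for genes with the region at the start and below the macrophage median by peak height and for genes alone in their region. No paired analysis was possible because each group has 1 library, which also left no replicate to leave out. The depth limits short regions: a median region has about 200 estimated tags.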

Other observations

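The 5 regions on chromosome Y all had a higher signal in the BCAA-free TAC than in the control TAC library. Their ratios were 0.51 for the histone demethylase gene Kdm5d, 0.48 for Uba1y, 0.47 for the translation factor gene Eif2s3y, 0.36 for the demethylase gene Uty and 0.11 for the helicase gene Ddx3y. In sham the diet ratios were 0.05 to 0.16. Eif2s3y had 9.20 in control sham, 8.09 in control TAC, 9.91 in BCAA-free sham and 11.6 in BCAA-free TAC. The counting interval of 3 of the 5 regions includes 0, and the regions were looked at after Kdm5d had come up among the highest genes.

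Of the 11 higher and 37 lower regions with at least 100 estimated tags in both TAC libraries, those with the most tags in each direction lie in Fmo6 and Arid1b. The promoter region of Fmo6, a flavin monooxygenase gene, is 15600 bases long and had 6.396 in control sham, 5.77 in control TAC, 10.3 in BCAA-free sham and 9.97 in BCAA-free TAC, with a ratio of 0.70 (0.54 to 0.85) in TAC and 0.62 in sham. A region of the chromatin remodelling gene Arid1b without its promoter had 5.89, 8.45, 5.15 and 5.13 (−0.62), on 498 estimated tags in control TAC and 302 in BCAA-free TAC. A region of the calcium channel gene Cacna1d had 7.21, 13.1, 6.70 and 7.87 (−0.67). In both, control TAC was the highest library, which follows in part from the choice of lower regions.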
